A study of Mus musculus with 25 samples.

Results

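The genes for the proteins of the mitochondrial ribosome were followed in RNA from the mouse duodenum. They were taken as every line of the deposited count table whose symbol is Mrps or Mrpl followed by a number. This gave 77 of the 17007 genes in the table, of which 29 (Mrps) are named for the small subunit and 48 (Mrpl) for the large subunit. All 77 are protein coding in the annotation and lie on 17 chromosomes, and the lowest count of any of them in any library was 178. Polyadenylated RNA was sequenced in 25 libraries from male mice that were 8 weeks old at the start. KI mice carried the Aldh2KI knock-in allele of Aldh2, the mitochondrial enzyme that oxidises the acetaldehyde made from ethanol, and WT mice were C57BL/6N. KI_Half (6 libraries) denotes KI mice that ate a 2.5% ethanol diet over 8 weeks and were gavaged 2 times weekly at 2 g/kg, and KI_Con (4 libraries) denotes KI mice on the control diet for the same time. In WT mice there were 3 levels, namely control diet (WT_Con, 4 libraries), the 2.5% diet with 2 g/kg gavages (WT_Half, 7 libraries), and a 5% ethanol diet with 4 g/kg gavages 2 times a week (WT_Full, 4 libraries). Tissue was taken 9 h after a last ethanol gavage of 5 g/kg. Whether the control mice were gavaged, whether every ethanol group received that last dose, and which substitution the knock-in holds were not stated in the labels. The knock-in has no KI_Full group, so the higher dose was seen in WT mice only.

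The mitochondrial ribosome translates the few messenger RNAs of the mitochondrial genome, which encode core subunits of the respiratory chain and ATP synthase. Its RNAs are made inside the organelle, but all of its proteins are encoded in the nucleus, made in the cytosol and imported. Many of its proteins have a bacterial counterpart, and others were added during the evolution of mitochondria. In the intestine, dividing crypt cells and absorptive villus cells both depend on mitochondria, and the crypt renews the epithelium continuously.

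The depth per library, in M (mega) counts summed over genes, was 27.6 to 34.6 in KI_Half and 27.3 to 32.7 in KI_Con. In WT mice it was 29.5 to 44.8 in WT_Con, 30.2 to 41 in WT_Half and 24.6 to 33.2 in WT_Full. All 12 of the listed villus enterocyte markers were found, with summed levels of 16436 to 53137 CPM (counts per M counts of a library, scaled by the trimmed mean of M values), so the labelled tissue showed the transcripts of its main absorptive cell. Aldh2 itself averaged 449 ± 128 CPM in WT_Full, 440 ± 74.9 CPM in WT_Half, 363 ± 54.8 CPM in KI_Half, 441 ± 24.0 CPM in KI_Con and 479 ± 21.0 CPM in WT_Con, and was called in none of the comparisons. A changed base would not show in counts, so this level does not check the genotype labels. Brunner gland transcripts, which mark the submucosal glands of the proximal duodenum, ranged from 15.3 to 53685 CPM with high and low libraries in every group. As the labels do not say that each library is a separate mouse, the p-values measure the spread between libraries, which may be partly technical.

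Per kilobase of exon, the members differed 62.2-fold in their mean level over all 25 libraries. Mrpl12, whose protein also binds the mitochondrial RNA polymerase, had the highest level at 122 CPM per kb. Next among large subunit genes came Mrpl34 at 99.0 CPM per kb and Mrpl2 at 54.6 CPM per kb, and the lowest were Mrpl32 at 4.72, Mrpl1 at 4.48 and Mrpl33 at 1.96 CPM per kb. Among small subunit genes the highest were Mrps21 at 66.8, Mrps23 at 45.1 and Mrps12, which encodes a protein of the decoding centre, at 36.2 CPM per kb. The lowest were Mrps35 at 4.71, Mrps10 at 4.33 and Mrps30 at 2.06 CPM per kb. The Mrps30 protein sits in the large subunit despite its name. The median was 19.6 CPM per kb over the large and 11.3 CPM per kb over the small subunit genes. Exon length was taken from the annotation as the union of all exons, so a gene with long but unused exons is placed too low in this order.

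The summed level of the 77 genes showed how the groups stood to one another. KI_Half libraries summed to 3192 CPM at the lowest, 3610 at the median and 3966 at the highest, against 3123, 2685, 2768 and 2665 CPM in KI_Con libraries 1 to 4. The KI groups did not overlap. In WT mice the sums were 2612, 2770, 2521 and 2686 CPM in WT_Con, 2994 to 4550 CPM with a median of 3162 in WT_Half, and 4359, 4237, 4004 and 2775 CPM in WT_Full. Every WT_Half library lay above every WT_Con library, while WT_Full replicate 4, at 2775 CPM, lay level with the highest WT_Con library and far below its own group. WT_Half replicate 1, at 4550 CPM, lay above every other library of the study.

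**Figure D1:**
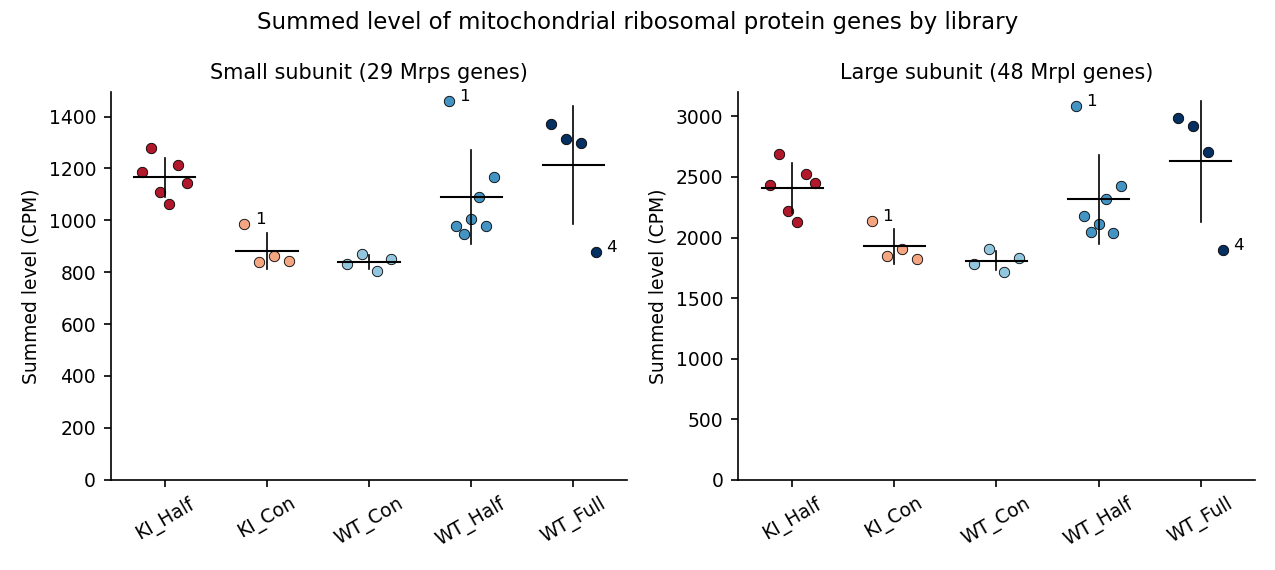
Summed level in CPM of the 29 small subunit genes (left) and the 48 large subunit genes (right), with 1 point per library, a horizontal bar at the group mean and a vertical line of 1 SD either side. Points numbered 1 or 4 are the libraries KI_Con 1, WT_Half 1 and WT_Full 4, and both panels show the same order of groups, with WT_Full 4 down among the control-diet libraries.

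The sums of the genes named for each subunit were higher in KI_Half than in KI_Con, that of the small subunit by more. The ratio of the summed small to the summed large subunit level was 0.467 to 0.4997 with a median of 0.484 in KI_Half, against 0.461, 0.456, 0.454 and 0.462 in KI_Con libraries 1 to 4. The KI groups did not overlap in this ratio, which was examined after the values were seen and was not tested. The small sum holds Mrps6, which rose by 2.30 on the log2 scale and overlaps other genes, as described further on. It also holds Mrps18a, Mrps30 and Mrps36, whose proteins are not part of the small subunit. KI_Half 7, the lowest of its group in the ratio, had sums of 1145 CPM (small) and 2452 CPM (large). KI_Con 1 had 986 and 2137 CPM. With the Mrps6 counts taken out of the small sums, the ratio of KI_Half 7 falls below that of KI_Con 1. The KI groups then overlap, so the separation is not shown for the small subunit as a whole. The ratio without Mrps18a, Mrps30 and Mrps36 was not examined. In WT mice the groups overlapped, with 0.458, 0.449, 0.480 and 0.462 in WT_Full, 0.449 to 0.481 in WT_Half and 0.457 to 0.470 in WT_Con. Counted gene by gene, 33 to 72 members lay above their own median over the 25 libraries in each KI_Half library, against 28, 7, 11 and 7 members in KI_Con. The figures were 7, 7, 1 and 5 members in WT_Con, 15 to 73 in WT_Half, and 74, 69, 68 and 6 in WT_Full replicates 1 to 4. Over all genes with a mean of at least 1 CPM, 45.9% to 49.7% lay above their own median in each library.

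**Figure D2:**
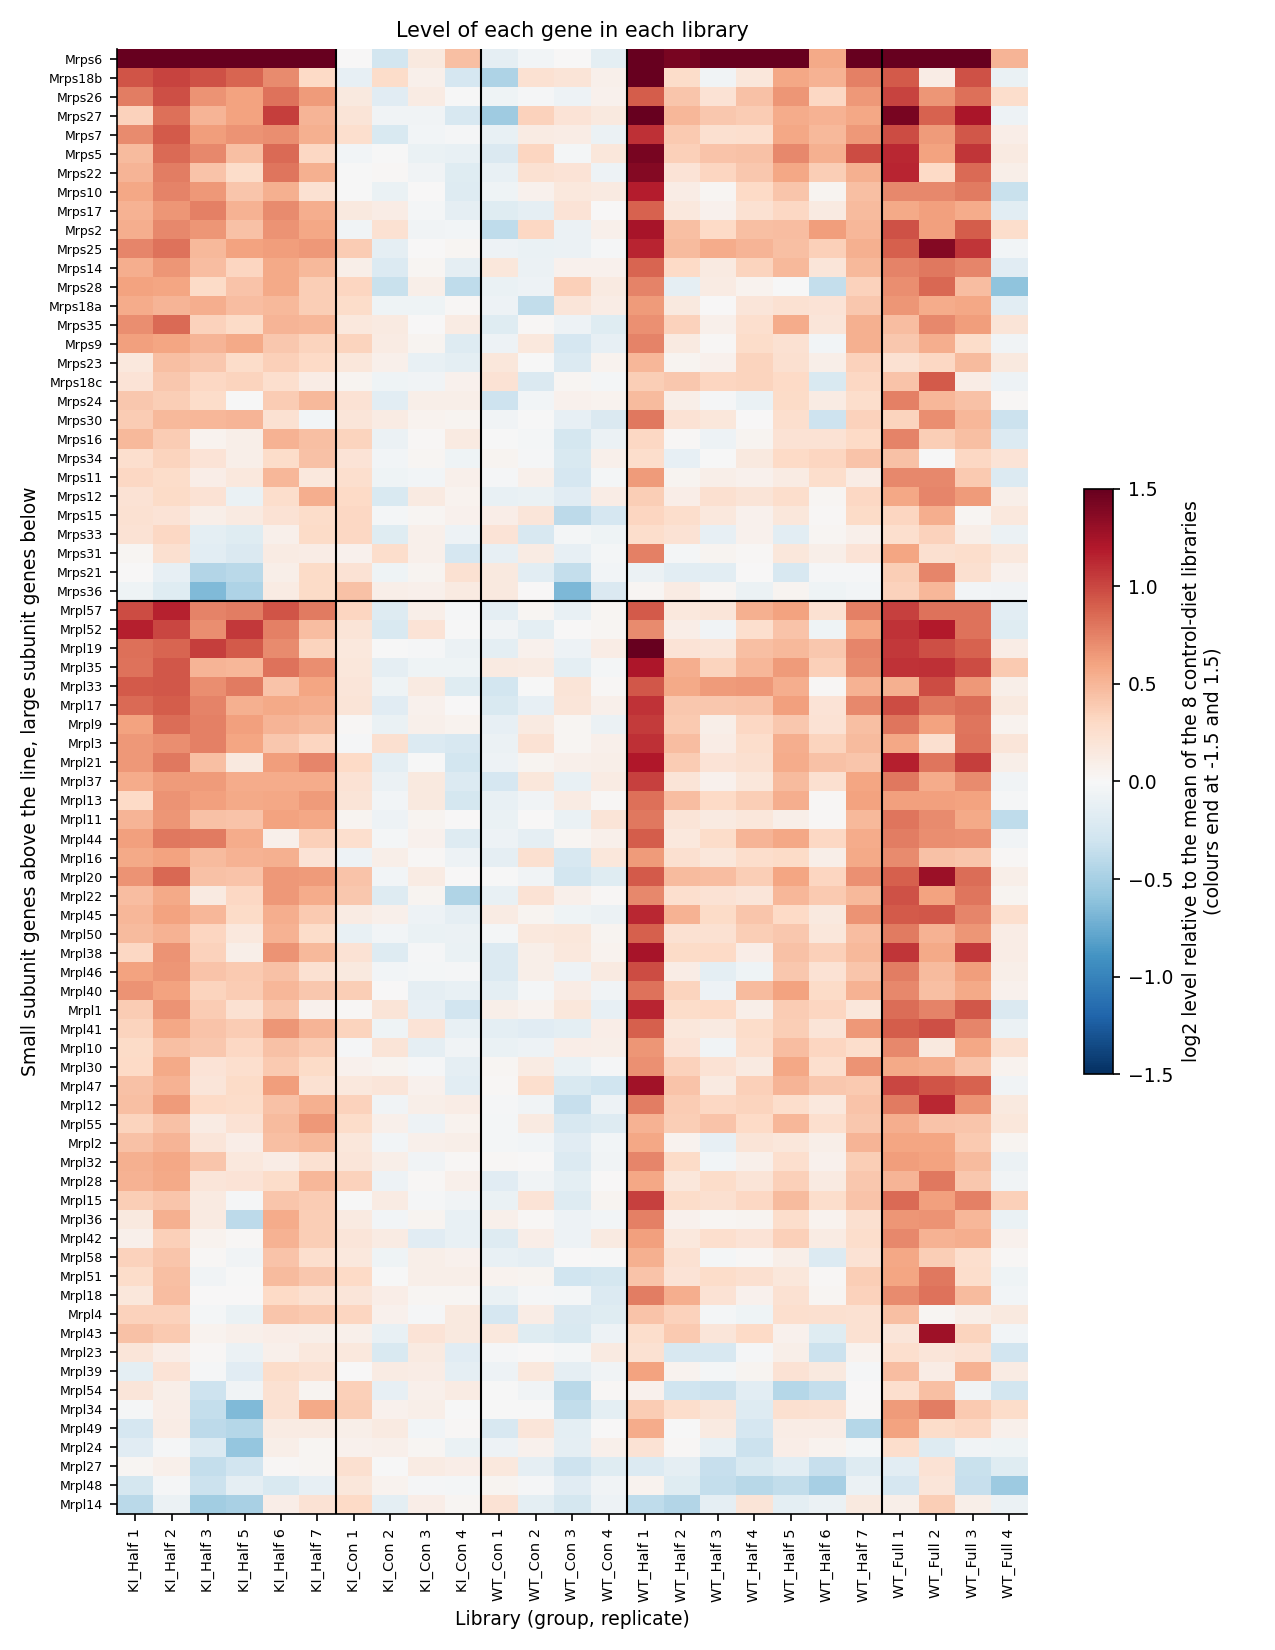
Log2 level of each of the 77 genes (rows, small subunit above the line, each subunit ordered by its change between KI_Half and KI_Con) in each of the 25 libraries (columns), relative to the mean of the 8 control-diet libraries, with 0.5 CPM added before the log. Red columns run through nearly all rows in WT_Half 1 and in WT_Full 1 to 3, the 8 control-diet columns and WT_Full 4 are pale, and Mrps6 is red in all ethanol libraries.

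In KI mice, 47 members were higher in KI_Half than in KI_Con and none was lower, by the edgeR quasi-likelihood test with an adjusted p under 0.05 over all genes tested (called, from here on). They comprised 18 of the 29 small and 29 of the 48 large subunit genes. Over all 16944 genes tested in this comparison, 37.9% were called, and 20.0% were called higher and 17.9% lower. The median log2 fold change of the members was 0.40, with 67 of 77 above 0, against a median of 0.00 over all genes tested and 50.2% of them above 0. In 35 members every KI_Half library lay above every KI_Con library, which held for 13.5% of all genes tested, and no member showed the opposite order, which held for 13.9%. The number called ranged from 35 to 52 when each library was left out in turn, beside 15.6% to 23.1% of all genes called higher in these fits. In the same libraries, markers of crypt and cycling cells (12 of 12 found) summed to 647 to 818 CPM in KI_Half, against 414 to 590 CPM in KI_Con, and 7 of the 12 were called higher and 1 lower. Villus enterocyte markers summed to 17502 to 38116 CPM in KI_Half, against 36792 to 53137 CPM in KI_Con, with 9 of 12 called lower. The part of these cells in the result was not tested. These are bulk libraries, in which a changed share of a cell type and a changed amount of RNA per cell cannot be told apart.

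Mrps26, a small subunit protein found in mitochondria only, was at 54.5 CPM at the lowest, 59.4 at the median and 70.4 at the highest in KI_Half, against 39.7, 31.7, 38.9 and 35.6 CPM in KI_Con. The groups did not overlap (log2 fold change 0.74 ± 0.10 SE, edgeR adjusted p = 0.00063). Mrpl57, a protein of the large subunit, was at 71.3 to 95.1 CPM with a median of 77.6 in KI_Half, against 53.3, 37.0, 45.1 and 42.0 CPM in KI_Con. Here too all KI_Half libraries were the higher ones (0.85 ± 0.12, edgeR adjusted p = 0.000732). Mrpl9, the counterpart of bacterial L9, was at 71.9 to 92.7 CPM with a median of 79.0 in KI_Half, against 52.2, 48.1, 54.4 and 53.4 CPM in KI_Con (0.64 ± 0.09, edgeR adjusted p = 0.000734). Its KI_Con libraries lay within a narrow band far below the lowest KI_Half library. Apart from Mrps6, described further on, the other genes among the 12 with the smallest p rose by 0.56 to 0.81 on the log2 scale. These were Mrps17 (0.61), Mrpl11 (0.56), Mrpl35 (0.76), Mrps7 (0.71), Mrps2 (0.60), Mrpl19 (0.81), Mrpl17 (0.68) and Mrps14 (0.58), and their edgeR adjusted p ran from 0.000841 to 0.00139. Mrpl19 shares 36% of its exon bases with Gcfc2 on the opposite strand, which averaged 3.27 CPM in KI_Half and 2.54 CPM in KI_Con.

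The genes with known extra roles or contacts moved to different degrees in KI mice. Mrps5, in the entry channel for mRNA, averaged 64.2 ± 10.2 CPM in KI_Half and 39.7 ± 1.45 CPM in KI_Con (SD, n = 6 and 4 libraries), and rose by 0.70 on the log2 scale. Mrps22 (0.65) and Mrps27 (0.72), both found in mitochondria only, and Mrpl3 (0.64), Mrpl44 (0.54) and Mrpl45 (0.49) of the large subunit were also called. The Mrpl45 protein lies at the exit of the peptide tunnel and holds the ribosome to the inner membrane. Mrpl12 averaged 199 ± 19.5 CPM in KI_Half and 160 ± 19.0 CPM in KI_Con, and passed the test with a small change (0.32 ± 0.11, edgeR adjusted p = 0.0316). Among the genes of the panel chosen by role that did not pass were Mrpl28 (0.30), Mrps30 (0.27), Mrps34 (0.24), Mrps12 (0.19) and Mrpl4 (0.12). Mrps34 shares 63.4% of its exon bases with Mapk8ip3 on the opposite strand and 37% with Nme3 on the same strand. Mrps27 shares 24.2% with a transcript on the opposite strand. Without stated counting settings, reads in these shared bases cannot be told apart.

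The 3 genes of the Mrps18 family encode paralogs, of which the Mrps18a protein sits in the large subunit and the other 2 occupy the small subunit. Mrps18b averaged 15.8 ± 2.69 CPM in KI_Half and 8.78 ± 1.53 CPM in KI_Con (0.85 ± 0.17, edgeR adjusted p = 0.00277). Mrps18a averaged 51.6 ± 2.50 CPM in KI_Half and 37.9 ± 4.56 CPM in KI_Con (0.46 ± 0.09, edgeR adjusted p = 0.00315). Mrps18c averaged 11.8 ± 0.876 CPM in KI_Half and 9.73 ± 0.452 CPM in KI_Con, the smallest change of the family (0.29 ± 0.11, edgeR adjusted p = 0.0472). All 3 were thus called, but a test of the difference between the paralogs was not made. Mrps18b shares 30.5% of its exon bases with Gm16279 on the opposite strand, and without a stated strand setting their reads cannot be told apart. Gm16279 was itself called, at 2.45 CPM in KI_Half and 1.2 CPM in KI_Con on average (1.03 ± 0.24, edgeR adjusted p = 0.00736).

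A minority of members lay on the other side of 0. Mrps36, which is now known to be a component of the 2-oxoglutarate dehydrogenase complex rather than of the ribosome, was at 22.6 to 44.1 CPM with a median of 33.1 in KI_Half, against 49.1, 38.4, 38.1 and 39.8 CPM in KI_Con. The groups overlapped and the change did not pass (-0.31 ± 0.18, edgeR adjusted p = 0.187). Mrpl48 was at 34.2 to 42.5 CPM with a median of 37.9 in KI_Half, against 48.6, 44.8, 42.3 and 42.1 CPM in KI_Con. A single KI_Half library reached into the range of KI_Con (-0.22 ± 0.09, edgeR adjusted p = 0.0727). Mrpl27 had a log2 fold change of -0.18 ± 0.11 (edgeR adjusted p = 0.212).

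**Figure D3:**
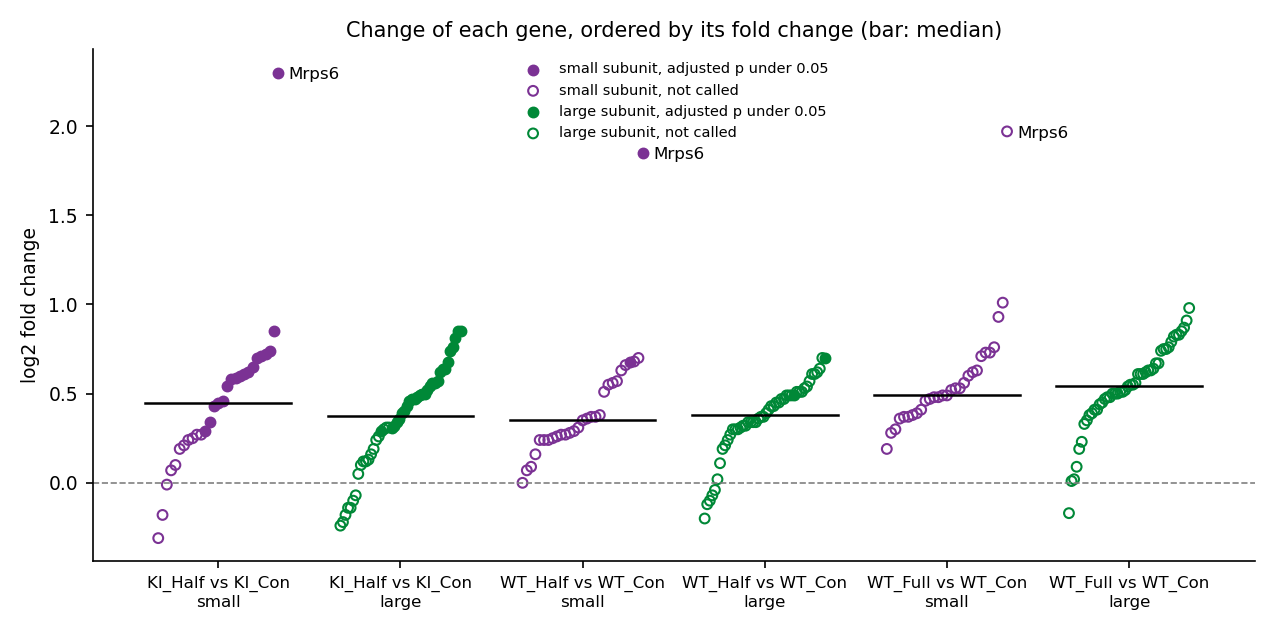
Log2 fold change of each small (purple) and large (green) subunit gene in the 3 comparisons of ethanol with control diet, ordered within each column, with filled points for genes called at an adjusted p under 0.05 and a bar at the median. Filled points make up 47 of 77 in KI_Half vs KI_Con, 4 in WT_Half vs WT_Con and none in WT_Full vs WT_Con, while the medians of the 3 comparisons lie at 0.40, 0.37 and 0.52.

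In WT mice on the lower ethanol dose, 4 members were called higher in WT_Half than in WT_Con and none lower, beside 1.47% of all genes tested called and 0.894% called higher and 0.571% lower. The median log2 fold change of the members was 0.37, with 72 of 77 above 0 (49.9% of all genes). An unadjusted p under 0.05 was found for 49 members, beside 3712 of all 16993 genes tested. Mrpl20, a counterpart of a bacterial protein needed early in large subunit assembly, was at 46.7 to 71.0 CPM with a median of 51.7 in WT_Half, against 37.1, 35.9, 30.6 and 32.6 CPM in WT_Con. The groups did not overlap (0.70 ± 0.13, edgeR adjusted p = 0.0267). Mrpl55 was at 41.0 to 49.7 CPM with a median of 45.9 in WT_Half, against 33.8, 37.8, 29.04 and 30.01 CPM in WT_Con, again without overlap (0.49 ± 0.10, edgeR adjusted p = 0.042). Mrps25 was at 34.1 to 59.2 CPM with a median of 38.2 in WT_Half, against 25.3, 24.8, 24.9 and 26.3 CPM in WT_Con (0.68 ± 0.15, edgeR adjusted p = 0.043). Its 4 control values lay within a very narrow band below all 7 WT_Half values. Mrps25 shares 69.8% of its exon bases with Nr2c2 on the opposite strand, which averaged 4.92 CPM in WT_Half and 5.43 CPM in WT_Con and had a log2 fold change of -0.14 ± 0.15. The fourth called gene was Mrps6. The lowest changes were those of Mrpl48 (-0.20 ± 0.12, edgeR adjusted p = 0.339), Mrpl27 (-0.12) and Mrpl54 (-0.10), none of which passed.

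These 4 calls rested on the test and on single libraries. DESeq2 called 20 members (4.13% of all genes called higher) and limma-voom 16 (3.50%). None was called with Brunner gland transcripts as a covariate, a fit in which only 0.0353% of all genes were called higher. When each library was left out in turn, 0 to 8 were called, beside 0.0823% to 1.42% of all genes called higher. The count was 0 without WT_Con 1, 1 without WT_Con 3, WT_Con 4, WT_Half 5 or WT_Half 7, and 2 without WT_Half 3 or 4. It was 7 without WT_Half 1 and 8 without WT_Half 6. In 23 members every WT_Half library lay above every WT_Con library, which held for 3.10% of all genes tested. When both genotypes were put together, 8 members had all 13 libraries on the lower ethanol dose above all 8 control-diet libraries, beside 1.58% of the genes with a mean of at least 1 CPM. These were Mrpl17, Mrpl19, Mrpl30, Mrpl35, Mrpl45, Mrps26, Mrps27 and Mrps6, some of them outside the rule for named genes.

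At the higher dose in WT mice, no member was called in WT_Full vs WT_Con, where 0.00592% of all genes tested passed, a single gene. The median log2 fold change of the members was nevertheless 0.52, and 76 of 77 were above 0 (49.9% of all genes). An unadjusted p under 0.05 was found for 57 members, beside 3003 of all 16882 genes tested. Mrpl35 was at 39.8, 39.9, 36.9 and 24.4 CPM in WT_Full, against 20.3, 20.2, 16.7 and 18.0 CPM in WT_Con. All 4 WT_Full libraries were above WT_Con, with replicate 4 the lowest of them (0.91 ± 0.19, edgeR adjusted p = 0.129). Mrps26 was at 72.8, 56.8, 64.1 and 43.1 CPM in WT_Full, against 34.2, 35.4, 34.1 and 37.6 CPM in WT_Con (0.76 ± 0.17, edgeR adjusted p = 0.144). All WT_Full libraries were again the higher ones. In this comparison Mrpl48 was the one member below 0 (-0.17 ± 0.17, edgeR adjusted p = 0.617).

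WT_Full replicate 4 decided this count. Without it, 53 members were called higher, beside 7.15% of all genes, and the median of the members was 0.69. Members in which every WT_Full library lay above every WT_Con library numbered 15 with all libraries (4.22% of all genes tested) and 64 without replicate 4 (13.7%). The other tests on all libraries also differed, with 17 members called higher by DESeq2 (2.98% of all genes), 44 by limma-voom with library weights (4.80%) and 34 by an edgeR fit over all 25 libraries (4.02%). In the authors' deposited table of this comparison, 47 members were higher and none lower at an adjusted p under 0.05, beside 11.5% of all genes. The labels do not set replicate 4 apart. It had the highest villus enterocyte sum of its group, 52795 CPM against 22897, 29113 and 16436 CPM, and the lowest sum of crypt and cycling cell markers, 549 CPM against 1228, 845 and 1064 CPM. The part of these cells in the result was not tested. Atf5, which encodes a factor that switches on mitochondrial stress genes and was the gene called here, was at 88.1, 71.4, 84.0 and 78.4 CPM in WT_Full replicates 1 to 4, against 26.9, 28.9, 29.5 and 30.8 CPM in WT_Con. For this gene replicate 4 lay among the other ethanol libraries.

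The 2 ethanol doses in WT mice differed less. No member was called in WT_Full vs WT_Half by edgeR (0% of all genes tested), DESeq2 or limma-voom. In the edgeR test 5 had an unadjusted p under 0.05, beside 780 of all 16967 genes tested. The median was 0.18, against 0.02 over all genes tested, with 74 of 77 above 0 (54.7% of all genes). Single libraries moved this median, which was 0.10 without WT_Full 1, 0.12 without WT_Full 2 and 0.32 without WT_Full 4. Mrps21, the small subunit gene with the highest level per kb, was at 62.7, 81.0, 57.1 and 50.4 CPM in WT_Full, against 40.7 to 48.4 CPM with a median of 45.4 in WT_Half. It was the only member whose groups did not overlap (0.218% of all genes tested), and its WT_Con values of 53.5, 43.1, 37.6 and 46.9 CPM covered those of WT_Half (0.49 ± 0.13, edgeR adjusted p = 1). Mrpl34 (0.38 ± 0.13) and Mrps12 (0.33 ± 0.13) followed by p. Without WT_Full 4, the groups did not overlap in 5 members, all higher in WT_Full (1.52% of all genes). Without both WT_Full 4 and WT_Half 1, a choice made after the values were seen, 28 members were called higher, beside 3.29% of all genes, and the median was 0.42.

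Between the genotypes, no member was called in KI_Half vs WT_Half by edgeR (0% of all genes tested). There 8 had an unadjusted p under 0.05, beside 2398 of all 16907 genes tested. The median was 0.07, with 57 of 77 above 0, against a median of -0.02 over all genes tested and 46.9% of them above 0. DESeq2 called 1 member higher (0.712% of all genes), limma-voom called 7 (2.24%), and the authors' deposited table of this comparison held none at an adjusted p under 0.05, beside 1.24% of all genes. Mrpl52 was at 43.2 to 71.0 CPM with a median of 58.2 in KI_Half, against 29.9 to 51.4 CPM with a median of 37.4 in WT_Half. The groups overlapped (0.58 ± 0.15, edgeR adjusted p = 0.266). Mrpl57 (0.40 ± 0.13, adjusted p = 0.273) and Mrps6 (0.65 ± 0.23, adjusted p = 0.283) came next in the edgeR test. On the other side the smallest p belonged to Mrps31 (-0.17), Mrpl15 (-0.16) and Mrpl24 (-0.12).

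On the control diet, no member was called in KI_Con vs WT_Con by edgeR (0% of all genes tested), DESeq2 or limma-voom. In the edgeR test 1 had an unadjusted p under 0.05, beside 1664 of all 16813 genes tested. The median was 0.05, with 54 of 77 above 0, against a median of -0.02 over all genes tested and 46.9% of them above 0. Mrps35 was at 35.9, 35.2, 32.2 and 34.8 CPM in KI_Con, against 28.2, 32.4, 30.4 and 28.2 CPM in WT_Con. The groups overlapped by a small margin (0.20 ± 0.09, edgeR adjusted p = 0.502). Mrpl50 was at 35.5, 37.3, 35.9 and 35.98 CPM in KI_Con, against 37.5, 43.0, 43.2 and 39.4 CPM in WT_Con. It was the 1 member wholly lower in KI_Con (1.61% of all genes tested), beside 2 wholly higher (2.97%), and did not pass (-0.18 ± 0.08, edgeR adjusted p = 0.51). Mrpl4 and Mrpl34, both at 0.25, and Mrps10 and Mrps5, both at -0.16, were the others with the smallest p.

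The difference between the ethanol responses of the genotypes was tested itself, as the change from KI_Con to KI_Half minus the change from WT_Con to WT_Half. No member was called by edgeR (0% of all genes tested) or DESeq2, and limma-voom called 2 (2.45% of all genes called higher). In the edgeR test 1 had an unadjusted p under 0.05, beside 2162 of all 17006 genes tested. The median difference was 0.00, with 40 of 77 above 0 (51.0% of all genes). The extremes by p were Mrpl52 (0.49 ± 0.22, edgeR adjusted p = 0.379), Mrps28 (0.48) and Mrpl11 (0.26) above 0, and Mrps36 (-0.47 ± 0.23, edgeR adjusted p = 0.395), Mrpl18 (-0.30) and Mrpl34 (-0.40) below. The count of called members, 47 in KI and 4 in WT mice, therefore differed far more than the medians, 0.40 and 0.37, did.

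Mrps6 changed most in every comparison of ethanol with control diet. Its protein is the counterpart of bacterial S6 at the edge of the small subunit platform. It was at 25.2 to 51.8 CPM with a median of 39.7 in KI_Half, against 7.61, 6.17, 8.45 and 10.5 CPM in KI_Con (2.30 ± 0.23, edgeR adjusted p = 0.000232). In WT_Half it was at 11.5 to 39.4 CPM with a median of 24.4, against 6.85, 7.37, 7.59 and 6.79 CPM in WT_Con (1.85 ± 0.27, edgeR adjusted p = 0.0135). WT_Full had 24.8, 36.3, 39.0 and 10.98 CPM (1.97 ± 0.35 against WT_Con, edgeR adjusted p = 0.103). All 17 ethanol libraries, WT_Full replicate 4 included, lay above all 8 control-diet libraries.

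Mrps6 overlaps Slc5a3, which encodes a myo-inositol transporter, on the same strand. The 2 genes have 159 exon bases in common, 10.4% of those of Mrps6. Gm49711, another protein coding gene on that strand, shares 305 exon bases with Mrps6 (19.9%), and its counts were not analysed here. How the authors' counting treated reads in shared bases has not been given in the sources used here. Slc5a3 also rose, with 17.0 to 44.7 and a median of 34.3 CPM in KI_Half against 4.62, 5.02, 5.58 and 8.97 CPM in KI_Con (2.48 ± 0.29, edgeR adjusted p = 0.00038). In WT mice it averaged 22.8 CPM in WT_Half and 6.95 CPM in WT_Con (1.72 ± 0.36, edgeR adjusted p = 0.0412), and 23.9 CPM in WT_Full (1.80 ± 0.42 against WT_Con, edgeR adjusted p = 0.146). What share of the Mrps6 reads came from transcripts of each of these genes cannot be told apart in these counts. The other 76 members lay between -0.31 and 0.85 in KI_Half vs KI_Con.

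**Figure D4:**
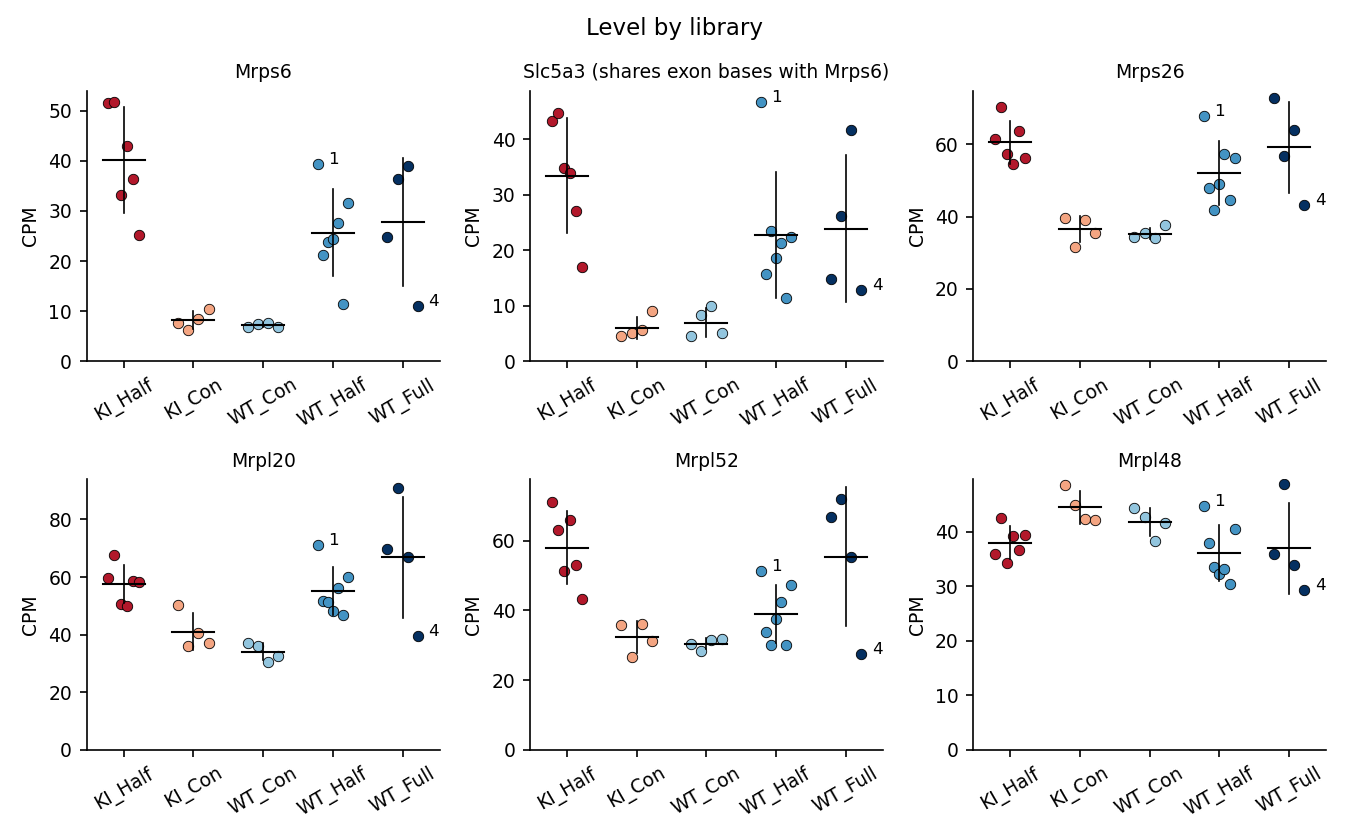
Level in CPM of Mrps6, of its neighbour Slc5a3, and of Mrps26, Mrpl20, Mrpl52 and Mrpl48 in each library, with a horizontal bar at the group mean and a vertical line of 1 SD either side. Points numbered 1 and 4 are WT_Half 1 and WT_Full 4. For Mrps6 every ethanol library lies above every control-diet library, and for Mrpl48 the groups overlap.

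Sequences upstream of the transcription start were examined for letters bound by known regulators of mitochondrial genes, namely NRF1, the ETS factor GABP and YY1. RefSeq promoters (GRCm38.p6) from 250 bases before to 50 bases after the start were matched for 68 of the 77 members and for 12071 genes of the table, and both strands were searched. The ETS letters CCGGAAG occurred in 35.3% of member promoters, against 16.2% of all. The YY1 letters AAGATGGC occurred in 17.6% of member promoters, against 4.25% of all, and the NRF1 letters GCGCATGCG in 10.3%, against 3.24%. The SP1 letters GGGCGG (34 of 68 members, 60.5% of all) and the E-box CACGTG (7.35% of members, 9.61% of all) were not more frequent. The ETS letters were in 42.3% of small and 31.0% of large subunit promoters, and in 39.0% of those of cytosolic ribosomal proteins. Of the 12 YY1 matches 8 lay after the start, whereas none of the 11 NRF1 matches, in 7 members, did. The NRF1 letters nearly equal their own reverse complement, and the 11 count the same site on both strands in Mrpl9, Mrpl32 and Mrpl39.

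The following 250 bases before the start, on the strand of the gene, are shown for 4 of the genes called higher in KI_Half vs KI_Con, chosen after their values were seen. Capitals mark the letters of ETS and NRF1 on either strand. Mrpl17 (chr7:105811088-105811337, minus strand) holds both, Mrps26 (chr2:130563507-130563756, plus strand) holds ETS as its reverse complement just before the start, Mrpl9 (chr3:94443086-94443335, plus strand) holds NRF1 on both strands at once, and Mrps6 (chr16:92058086-92058335, plus strand) holds none of the ETS, NRF1 or YY1 letters.
Mrpl17: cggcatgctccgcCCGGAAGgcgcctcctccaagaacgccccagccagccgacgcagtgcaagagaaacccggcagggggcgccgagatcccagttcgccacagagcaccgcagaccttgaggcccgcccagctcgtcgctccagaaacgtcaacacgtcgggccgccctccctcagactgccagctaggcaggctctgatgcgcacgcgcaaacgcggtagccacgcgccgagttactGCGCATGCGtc
Mrps26: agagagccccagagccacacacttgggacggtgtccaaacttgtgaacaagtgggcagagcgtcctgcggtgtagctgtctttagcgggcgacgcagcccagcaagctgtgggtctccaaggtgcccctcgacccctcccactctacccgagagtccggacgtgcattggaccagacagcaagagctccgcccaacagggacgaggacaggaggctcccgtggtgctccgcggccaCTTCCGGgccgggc
Mrpl9: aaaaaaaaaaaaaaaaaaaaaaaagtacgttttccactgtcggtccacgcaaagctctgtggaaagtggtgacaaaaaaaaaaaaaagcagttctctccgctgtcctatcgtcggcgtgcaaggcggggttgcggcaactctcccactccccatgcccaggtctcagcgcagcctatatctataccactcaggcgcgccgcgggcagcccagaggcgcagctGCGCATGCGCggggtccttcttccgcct
Mrps6: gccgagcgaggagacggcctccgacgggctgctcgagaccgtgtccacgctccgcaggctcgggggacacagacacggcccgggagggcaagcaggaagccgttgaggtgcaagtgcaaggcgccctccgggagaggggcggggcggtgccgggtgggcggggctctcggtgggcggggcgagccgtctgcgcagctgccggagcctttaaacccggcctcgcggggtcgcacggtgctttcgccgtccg

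The letters were also counted beside the call in KI_Half vs KI_Con, without a test. Of the 36 members with ETS, YY1 or NRF1 letters 19 were called higher, with a median log2 fold change of 0.32, and of the 32 without any of them 22 were called, with a median of 0.43. A match is a description of the window, not a bound site.

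Other properties of the members were set beside the call in the same comparison, without a test. The 47 called genes had a median exon length of 2956 bases and a median control-diet level of 9.07 CPM per kb, against 1784 bases and 24.6 CPM per kb for the other 30. Of the 38 members with longer exons 28 were called (73.7%), against 19 of 39 (48.7%) with shorter exons. Over all genes tested, divided at the same length, the shares called higher were 20.2% above it and 19.6% below. Members with a near copy in a transcript of another gene, mostly a processed pseudogene, were called in 8 of 19 cases, against 39 of 58 without one. A near copy had at least 95% identity over 50% of the coding part, and reads of these genes may be split or lost. For Mrpl43 and Mrpl33 the only match was a gene that overlaps them (Twnk and Gm43809), not a copy elsewhere, and both also count among the members that share exon bases. Exon bases were shared with another gene in 32 members, of which 18 were called, against 29 of 45 of the rest. Mrpl46 and Mrps11, named after their values were seen, start back to back and share 173 exon bases. Mrpl46 was called (0.47, edgeR adjusted p = 0.00411) and Mrps11 was not (0.21, edgeR adjusted p = 0.174).

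Of the 77 members, 32 encode proteins with no counterpart in the bacterial ribosome and 45 encode proteins with one, a division made after the values were seen. In KI_Half vs KI_Con 19 of the 32 and 28 of the 45 were called, with medians of 0.43 and 0.39. The medians were 0.36 and 0.37 in WT_Half vs WT_Con, and 0.54 and 0.51 in WT_Full vs WT_Con.

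Genes around the mitochondrial ribosome were counted in the same comparison in KI mice, beside the 20.0% of all genes called higher. Of 5 mitoribosomal proteins without an Mrp symbol 2 were higher, Ptcd3 (0.58 ± 0.13) and Chchd1 (0.34 ± 0.11). Among 25 genes for ribosome assembly and rRNA modification 12 were higher and none lower, with Noa1 (0.67) and Ddx28 (0.69), a GTPase and a helicase of assembly, having the smallest p. Among 14 translation factors 4 were higher, including the elongation factors Tsfm (0.80 ± 0.09, edgeR adjusted p = 0.000376) and Gfm1 (0.51). Of 20 mitochondrial tRNA synthetases and related enzymes 10 were higher and 1 lower, with the smallest p for Vars2 (0.76) and Yars2 (0.82). Of 18 genes for mitochondrial DNA and RNA maintenance 12 were higher, and the RNA nucleases Elac2 (0.93) and Rexo2 (0.68) had the smallest p.

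Lists further from the machinery were counted in the same way, with no test between lists. Of 77 nuclear genes for respiratory chain subunits none was called higher and 7 were called lower, a smaller share than the 17.9% of all genes called lower (DESeq2 called 10 lower and limma-voom 15). The median was -0.18, and those called included Uqcrfs1 of complex III (-0.38, edgeR adjusted p = 0.00869) and Sdhb of complex II (-0.41, edgeR adjusted p = 0.00873). None of the 13 mitochondrially encoded mRNAs was called by edgeR, with 1 at an unadjusted p under 0.05 and a median of 0.09 (DESeq2 called 0 and limma-voom 2). Over all genes tested, 7986 of 16944 had an unadjusted p under 0.05 in the edgeR test. Cytosolic ribosomal protein genes were higher in 69 of 82 cases with none lower and a median of 0.47. Rpl14 (0.68) and Rps16 (0.65) had the smallest p, and the highest log2 fold change in the list was 1.12. Of 16 regulators of mitochondrial biogenesis and stress 8 were higher and 2 lower. Atf5 averaged 143 ± 53.6 CPM in KI_Half and 23.7 ± 3.69 CPM in KI_Con (2.61 ± 0.28, edgeR adjusted p = 0.000286), and Hspd1, the mitochondrial chaperonin, rose by 0.79 on the log2 scale.

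In WT mice the medians of these lists were mostly above 0, and edgeR called no gene of them but Atf5. In WT_Full vs WT_Con limma-voom called 27 of the 82 cytosolic ribosomal proteins (DESeq2 3, with 43 at an unadjusted p under 0.05 in the edgeR test), and limma-voom and DESeq2 each called 5 of the 16 regulators. Neither called more than 4 genes of any other list in WT_Full vs WT_Con, or of any list in WT_Half vs WT_Con. In WT_Half vs WT_Con the median was 0.23 for cytosolic ribosomal proteins, 0.36 for tRNA synthetases, 0.36 for DNA and RNA maintenance, 0.26 for assembly and 0.05 for respiratory chain subunits. In WT_Full vs WT_Con these were 0.52, 0.33, 0.41, 0.34 and 0.21 in the same order of lists. Atf5 was called in both comparisons, at 1.57 ± 0.19 (edgeR adjusted p = 0.00753) in WT_Half vs WT_Con and 1.48 ± 0.13 (edgeR adjusted p = 0.0108) in WT_Full vs WT_Con, which share the WT_Con libraries. Respiratory chain subunits had a median of 0.28 in KI_Con vs WT_Con with all 77 above 0 and none called by edgeR (27 at an unadjusted p under 0.05, none called by DESeq2 or limma-voom). In the difference between the genotypes' ethanol responses their median was -0.22, with none called by edgeR (7 at an unadjusted p under 0.05, none called by DESeq2 or limma-voom).

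**Figure D5:**
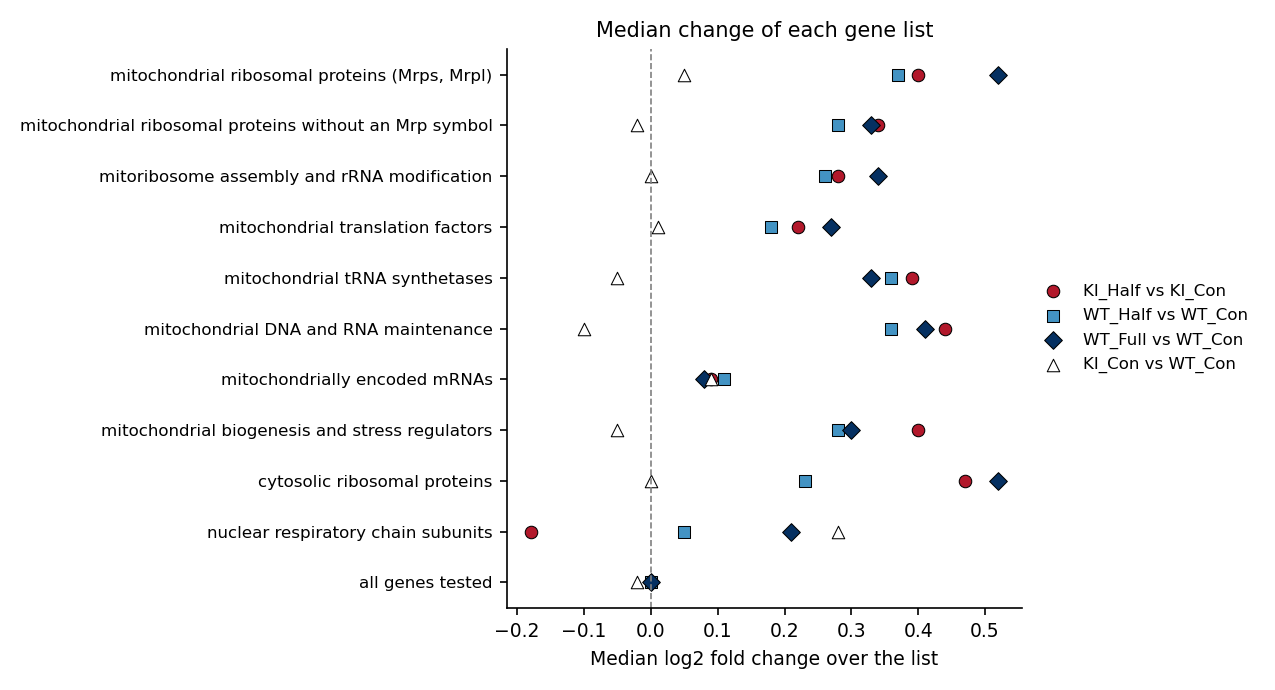
Median log2 fold change of each gene list (rows) in the 3 comparisons of ethanol with control diet and in KI_Con vs WT_Con. The mitochondrial ribosomal proteins lie at 0.40, 0.37 and 0.52 in the ethanol comparisons, and respiratory chain subunits lie below 0 in KI_Half vs KI_Con and above 0 in KI_Con vs WT_Con.

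Other cell type markers also varied between groups and libraries. In WT mice crypt and cycling cell markers summed to 497 to 670 CPM in WT_Con, 506 to 1663 CPM in WT_Half and 549 to 1228 CPM in WT_Full. WT_Half replicate 1, with the highest sum of mitochondrial ribosomal protein genes, also had the highest crypt sum, 1663 CPM, and the lowest villus sum of its group, 19387 CPM. T and NK cell markers summed to 25.8 to 144 CPM in KI_Half, against 203 to 259 CPM in KI_Con. Pancreatic acinar transcripts reached 5018 CPM in a control-diet library and lay between 12.4 and 86.4 CPM in the ethanol libraries. The diets overlapped, with 15.8 CPM in WT_Con 2, 23.8 CPM in KI_Con 3 and 21.8 CPM in KI_Con 4. The part of these cells in the changes of the members was not tested.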

How the data were processed

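Polyadenylated RNA of the duodenum was sequenced, and per the submitters' processing notes reads went through FastQC, Trimmomatic, HISAT2 (GRCm38), SAMtools, featureCounts and DESeq2. Not given in the sources used here are their versions, the annotation release, the strand setting and how reads with several matches were treated. Raw counts of whole reads were deposited. From DESeq2, per the file headers, come the authors' log2 fold changes and the authors' adjusted p-values for 2 comparisons, KI_Half vs WT_Half and WT_Full vs WT_Con. The 17220 lines held 17007 identifiers, and 213 repeats with equal counts were merged. GENCODE M21 (GRCm38) gave positions, exon lengths and overlaps.

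The fits used edgeR 4.0.16 under R 4.3.3 (quasi-likelihood F test, trimmed mean of M values, default filter on low counts, no covariate). Each comparison was fitted on its own 2 groups, the difference between genotypes on 4, and all members passed the filter in every comparison. P-values are two-sided, with Benjamini-Hochberg adjustment over all genes tested and a threshold of 0.05. Levels are CPM scaled over the 25 libraries, with SD over libraries, and fold changes carry SE. Alternatives used DESeq2 1.42.0, limma 3.58.1, another scaling, no filter, all libraries, a replicate block, a Brunner gland covariate and left-out libraries, and the fits were tested on simulated data. The members, the gene lists and the rule for named genes were chosen with earlier results of these data known. The rule takes, per comparison, the 3 members with the smallest p above and below 0 and up to 12 called members, the 3 highest and lowest per kb in each subunit, a panel by role, and the 2 genes with the smallest p from other lists.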

Additional observations from a re-analysis of the deposited data

Results flagged for a closer look

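A library was set apart where its distance to the nearest library of its group exceeded the 95% limit of Dixon's ratio. Of 190 sets of values examined (35 named genes and 3 sums in 5 groups), 24 did so. The sets are not independent, as the genes and their sums were measured in the same 25 libraries. The count therefore cannot be set against a chance rate. WT_Half replicate 1 was the highest library in 17 of the 24 and WT_Full replicate 4 the lowest in 4.

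WT_Half replicate 1 had a summed level of 4550 CPM over all 77 genes, against 2994 to 3591 CPM in the other WT_Half libraries. Its small subunit sum was 1462 CPM and its large subunit sum 3088 CPM. Among large subunit genes it had 98.6 CPM of Mrpl15, 56.1 CPM of Mrpl19, 61.7 CPM of Mrpl3, 43.5 CPM of Mrpl35, 72.1 CPM of Mrpl50 and 107 CPM of Mrpl9. Among small subunit genes it had 62.7 CPM of Mrps10, 51.1 CPM of Mrps14, 53.2 CPM of Mrps17, 27.6 CPM of Mrps18b, 52.4 CPM of Mrps2, 59.2 CPM of Mrps25, 66.0 CPM of Mrps31 and 91.1 CPM of Mrps7. Without this library the median log2 fold change of the members in WT_Half vs WT_Con was 0.27, and 7 were called, beside 1.34% of all genes called higher.

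WT_Full replicate 4 had a small subunit sum of 876 CPM, against 1298 to 1370 CPM in the other WT_Full libraries, with 21.6 CPM of Mrps10, 24.5 CPM of Mrps14 and 25.6 CPM of Mrps17. KI_Con replicate 1 had a small subunit sum of 986 CPM, against 841 to 864 CPM in the other KI_Con libraries, and 49.1 CPM of Mrps36. KI_Con replicate 2 had 25.8 CPM of Mrps2. What sets these libraries apart was not tested.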

How the results depend on the processing

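Across alternatives, 109 of 131 counts of called members stayed within 1.5 times the reported count, and all 131 medians moved by less than 1 SD between libraries. This SD was pooled within the groups compared and includes WT_Full 4 and WT_Half 1, so the limit was wide where those groups were compared. In WT_Full vs WT_Half, a move from 0.18 to 0.42 without both libraries stayed within it. Small medians still moved by over 1.5 times with a library left out, over 0.10 to 0.32 in WT_Full vs WT_Half, 0.04 to 0.14 in KI_Half vs WT_Half, 0.00 to 0.10 in KI_Con vs WT_Con and -0.03 to 0.09 for the difference between genotypes. The counts that moved were as follows. In WT_Full vs WT_Con, DESeq2 called 17, limma-voom 44 and the fit of all 25 libraries 34 members, beside 2.98%, 4.80% and 4.02% of all genes called higher. Leaving out a library gave 0 to 53 members, beside 0% to 7.15% of all genes. In WT_Half vs WT_Con, DESeq2 called 20, limma-voom 16 and the fit of all 25 libraries 15, beside 4.13%, 3.50% and 2.06% of all genes called higher. The Brunner gland covariate and the replicate block gave 0 each, where 0.0353% and 0% of all genes were called higher. Leaving out a library gave 0 to 8, beside 0.0823% to 1.42% of all genes. In KI_Half vs WT_Half, DESeq2 called 1 (0.712% of all genes called higher) and limma-voom 7 (2.24%). For the difference between genotypes limma-voom called 2 (2.45% of all genes called higher). In WT_Full vs WT_Half, leaving out both WT_Full 4 and WT_Half 1, chosen after the values were seen, gave 28 (3.29% of all genes called higher). In KI_Half vs KI_Con, where the count stayed within 1.5 times, leaving out a library gave 35 to 52 called members (15.6% to 23.1% of all genes higher). The replicate block gave 35 higher and 1 lower, beside 36.4% of all genes called and 18.6% called higher. Correlations between the deviations of same-numbered libraries ran from -0.40 to 0.51, and in no comparison were all above 0.1. They were 0.23, 0.26, 0.30 and 0.00 in KI_Con vs WT_Con. With so few pairs in each comparison, these values do not settle whether the numbers pair the libraries. The difference between genotypes was not fitted with a replicate block.

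Of the values of single named genes, 851 kept their direction and call, 23 gained and 29 lost the call, and 24 changed sign. All of these sign changes were in WT_Full vs WT_Half, for genes near 0. Mrps18b had 0.25 with limma-voom, -0.27 to 0.15 with a library left out and 0.34 without both libraries. Mrpl4 had 0.05 with limma-voom, 0.04 with the gland covariate, 0.03 with the block, -0.12 to 0.02 with a library left out and 0.05 without both. Mrpl3 had 0.16 with limma-voom, 0.00 with the covariate, -0.15 to 0.11 with a library left out and 0.22 without both. The cause of these differences was not tested. With 4 libraries in a group, a single library such as WT_Full 4 sets much of the spread. The lowest count of any member in any library was 178, and what part depth had in the missing calls was not tested.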
